A study of Sus scrofa with 23 samples.

Results

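Dihydrolipoamide dehydrogenase (DLD) and the pyruvate dehydrogenase complex were followed in Longissimus muscle of pigs that differ in residual feed intake (RFI), the feed an animal eats beyond what its growth and maintenance predict. The set held 8 listed genes: the complex's subunits DLD, DLAT, PDHA1, PDHB and PDHX, the pyruvate carboxylase gene PC and the kinases PDK4 and PDK2. Probes were taken where the array annotation gave the gene's symbol, as the gene name or in parentheses in the description. This found 25 probes for 5 genes, namely 9 for DLD, 9 for PDK4, 3 for PDHA1, 2 for DLAT and 2 for PC, out of 4969 genes named on the array. PDHB, PDHX and PDK2 had no probe by this rule. All 25 probes passed the filter on dim probes, as did 27799 of 43603 probes in all.

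Gene expression was measured on 1-colour arrays, 1 array per pig, in 23 pigs at 115 kg body weight. The 3 groups were 7 low-RFI pigs (RFIneg, free access to feed), 8 high-RFI pigs (RFIpl, free access to feed) and 8 restricted high-RFI pigs (RFIplR, held at the feeding level of the low-RFI pigs). The low-RFI group therefore differs from the high-RFI group in selection and in what its pigs ate, and from the restricted group in selection at a like feeding level. Labels give no age, sex or litter. Markers of skeletal muscle matched the labelled tissue, with ACTA1, CKM, DES, TNNT3 and MYLPF well above background on all 23 arrays.

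The pyruvate dehydrogenase complex sits in the mitochondrial matrix and turns pyruvate, the end product of glycolysis, into acetyl-CoA for the citric acid cycle. PDHA1 and PDHB form its first enzyme, DLAT the second, DLD the third, which reoxidises the lipoyl group of DLAT, and PDHX anchors DLD to the core. DLD is also a subunit of the 2-oxoglutarate and branched-chain ketoacid dehydrogenases and of the glycine cleavage system. PDK4 and PDK2 phosphorylate PDHA1 and switch the complex off; PDK4 transcription in muscle is known to rise in fasting and with fatty acid use. PC makes oxaloacetate from pyruvate in place of acetyl-CoA.

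DLD was selected on the comparison of low-RFI with high-RFI pigs in an earlier analysis of these data, so that comparison is described here without a test. The other comparisons were not used to choose the genes, but each shares a group of pigs with it. Low-RFI against restricted pigs reuses the 7 low-RFI pigs on which DLD was chosen, so low DLD there is not independent of the choice. Levels are the log2 processed signal less the array's 75th percentile, so that 0 is the signal of the 75th percentile and a difference of 1 is a doubling. Levels of different probes are not set against each other.

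The 9 DLD probes gave unlike values, so the sequences of 4 are shown, 5′ to 3′, among them those with the smallest and the largest difference of low-RFI from restricted pigs. Each array probe is 60 bases long and is named by its start on the transcript sequence used in the array's design, which is not a genome position. The probes at 229, 529 and 916 are given whole with nothing marked, and for the probe at 1685 bases 5 to 34 are given with stop triplets in capitals.
DLD 229: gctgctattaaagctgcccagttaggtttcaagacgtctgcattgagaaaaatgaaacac
DLD 529: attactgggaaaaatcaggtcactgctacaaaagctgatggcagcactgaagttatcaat
DLD 916: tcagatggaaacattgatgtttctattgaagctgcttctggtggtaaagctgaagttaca
DLD 1685: TGAatcaTGAaacttttggagatattTAAt
The probes at 229, 529 and 916 each had at least 1 forward reading frame free of stop triplets, and the probe at 1685 had none of the 3. GC content of the 9 DLD probes ran from 35.0% to 41.7%. No probe outside the set shared an exact run of 20 bases with any of the 25 member probes, on either strand.

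Several probes of a gene overlap and are not independent readings. The DLD probes at 1958 and 1973 share 47 bases, those at 2070 and 2115 share 17 and those at 2115 and 2152 share 23. For PDK4, the probes at 2575 and 2576 share 59 bases and those at 3399 and 3429 share 30. Except for the pair at 2070 and 2115, the shared stretches differ by 1 or 2 inserted bases. For each of these pairs but the PDK4 pair at 2575 and 2576, 1 difference is shown. The pieces are 30 bases long, with the run that differs in capitals where it is present.
DLD 1958: gtgatcaagttattttAActtggttttcac
DLD 1973: gatcaagttattttAAActtggttttcacc
DLD 2115: tttttaaggttccattgAgtctacagtctg
DLD 2152: ggttccattgAAgtctacagtctgaagtat
PDK4 3399: ctagtggatggaaactgacgttcaggccca
PDK4 3429: ggatggaaactgacTgttcaggcccacttg
Readings of each pair followed one another over the pigs, though not always more closely than those of other pairs. After group means were subtracted, the correlation was 0.95 for the DLD probes at 1958 and 1973. It was 0.77 for those at 2115 and 2152, over 23 pigs on the same arrays. The median over all 36 pairs of DLD probes was 0.78.

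DLD was lower in low-RFI than in restricted pigs at 8 of 9 probes, by 0.18 to 0.75 on the log2 scale, and 2 of these passed the test. Under normexp background correction neither passed (-0.23 at 1685 and -0.22 at 916, adjusted p 0.621 and 0.506), and the other 6 of the 8 turned above 0, to between 0.07 and 0.29. The 7 low-RFI pigs ranged at the probe at 1685 from 1.60 to 2.47 with a median of 1.95. The 8 restricted pigs ranged from 2.45 to 3.08 with a median of 2.68. A single low-RFI pig lay above the lowest restricted pig, and 55 of 56 pairs of pigs had the low-RFI pig lower. The means were 2.0 ± 0.28 (SD, n = 7) and 2.74 ± 0.21 (SD, n = 8), a difference of -0.75 (SE 0.12), or 0.596 of the restricted level, with an adjusted p of 0.00558 in limma.

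Low-RFI pigs ranged at the DLD probe at 916 from 0.43 to 0.96 around a median of 0.79. The restricted pigs ranged from 0.97 to 1.56 around a median of 1.22. The groups did not overlap, although the highest low-RFI pig and the lowest restricted pig were only 0.01 apart in rounded values. The difference was -0.49 (SE 0.10, adjusted p 0.039), 0.712 of the restricted level.

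Of 25 member probes 2 passed the test in this comparison, and both are DLD probes, beside 0.162% of all probes tested. The comparison reuses the low-RFI pigs on which DLD was chosen, so the count supports nothing about DLD by itself. Groups did not overlap for 4 member probes, all of DLD (916, 1958, 1973 and 2070), beside 0.227% of all probes.

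The 5 probes toward the end of the transcript gave like values that did not pass the test over all probes. For the probe at 2152, which has the highest mean signal of the DLD probes, low-RFI pigs ranged from 4.24 to 4.72 (median 4.55) and restricted pigs from 4.67 to 5.12 (median 4.89). The groups met in a narrow band, with 55 of 56 pairs lower in low-RFI pigs, and the difference was -0.38 (SE 0.09, adjusted p 0.0786). The probes at 1958, 1973, 2070 and 2115 gave differences of -0.38, -0.38, -0.35 and -0.36, with adjusted p of 0.0829, 0.075, 0.123 and 0.148.

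The probes at 529 and 229 did not pass. Levels at the probe at 529 ranged in low-RFI pigs from 0.63 to 0.98 and in restricted pigs from 0.82 to 1.38, a difference of -0.18 (SE 0.09, adjusted p 0.515). Low-RFI pigs spanned, at the probe at 229, 1.0 to 1.60 and restricted pigs 1.04 to 1.42, with a difference of 0.03 (SE 0.10, adjusted p 0.951). The difference between probes was not tested. The probe at 229 also followed the others least over the pigs, with correlations of 0.08 to 0.57 to the other DLD probes, whereas the remaining pairs of DLD probes lay between 0.55 and 0.95.

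**Figure D1:**
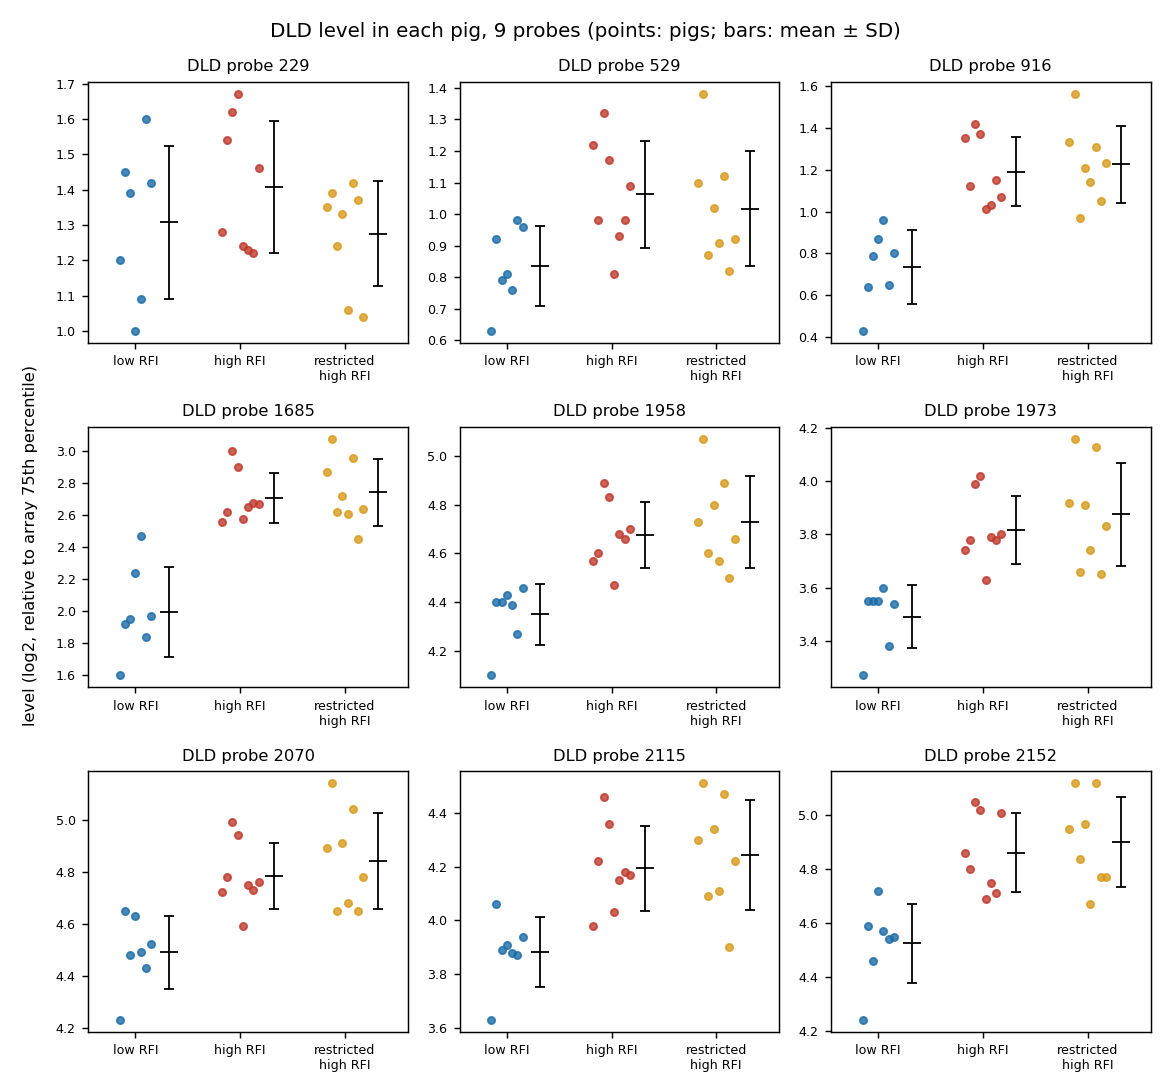
Level of DLD in each pig (log2, relative to the array's 75th percentile) at 9 probes, by group; points are pigs and bars are the mean ± SD (n = 7, 8 and 8). All low-RFI pigs lie below both other groups at the probes at 916, 1958 and 1973. At the probe at 1685 they reach 2.47, just above the lowest restricted pig at 2.45. The 3 groups lie over each other at the probe at 229.

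The arrays lay on 6 slides, scanned on 2 days. With slide as a fixed block the difference was -0.77 at the probe at 1685 (adjusted p 0.0295), and at the probe at 916 it was -0.50 and no longer passed (adjusted p 0.0752). The difference between low-RFI and restricted pigs was below 0 on 6 of 6 slides at 6 DLD probes (916, 1685, 1958, 1973, 2070 and 2152). Within the first and second scan day it was -0.89 and -0.60 at the probe at 1685, and -0.61 and -0.37 at the probe at 916. For the probe at 2152 the values were -0.54 and -0.20. Slide 3 had the lowest median share of spots well above background. Without its 4 arrays the difference was -0.72 at the probe at 1685 and -0.49 at the probe at 916. Neither passed (adjusted p 0.0597 and 0.196).

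Single pigs decided the call at the probe at 916 but not at the probe at 1685. Without any 1 of the 23 pigs the difference at 1685 lay between -0.83 and -0.68, with an adjusted p of 0.00142 to 0.0172. At 916 it lay between -0.53 and -0.44, and the adjusted p rose above 0.05, to at most 0.11, when low-RFI pig 1, 2, 3, 6 or 7, high-RFI pig 7 or restricted pig 2, 4, 6 or 8 was left out. With median centring of the arrays the adjusted p was 0.0196 at 1685 and 0.118 at 916.

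Feed restriction of high-RFI pigs went with no called difference in DLD. At the probe at 1685 the high-RFI pigs ranged from 2.56 to 3.0 (median 2.66) and the restricted pigs from 2.45 to 3.08, a difference of 0.04 (SE 0.11, adjusted p 0.966). High-RFI pigs ranged at the probe at 2152 from 4.69 to 5.05 and the restricted pigs from 4.67 to 5.12, a difference of 0.04 (SE 0.09, adjusted p 0.944). The groups overlapped over nearly their whole range. Over the 9 DLD probes the differences ran from -0.13 to 0.06, each with an SE of 0.09 to 0.11, and the smallest adjusted p was 0.717. None of the 25 member probes passed here, against 0.0036% of all probes, and none had groups that did not overlap, against 0.0791%. DLD values split by scan day. Differences at most DLD probes were above 0 on the first day and below 0 on the second. At the probe at 1685 they were 0.20 and -0.13.

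Low-RFI against high-RFI is the comparison DLD was chosen by, and its values are given as they stand. The low-RFI mean at the probe at 1685, 2.0 ± 0.28 (SD, n = 7), stood beside 2.71 ± 0.16 (SD, n = 8) in high-RFI pigs, a difference of -0.71. All 56 pairs of pigs had the low-RFI pig lower, so the groups did not overlap. The 9 DLD probes gave -0.10 to -0.71, and all 25 member probes were below 0, with a median of -0.31 beside 0.02 for all probes tested. As a record only, 1 of the 25 was past the threshold used for the other comparisons (DLD at 1685; 0.122% of all probes) and 4 had groups that did not overlap (DLD at 916, 1685, 1958 and 1973; 0.353% of all probes). Nothing is read from these counts.

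**Figure D2:**
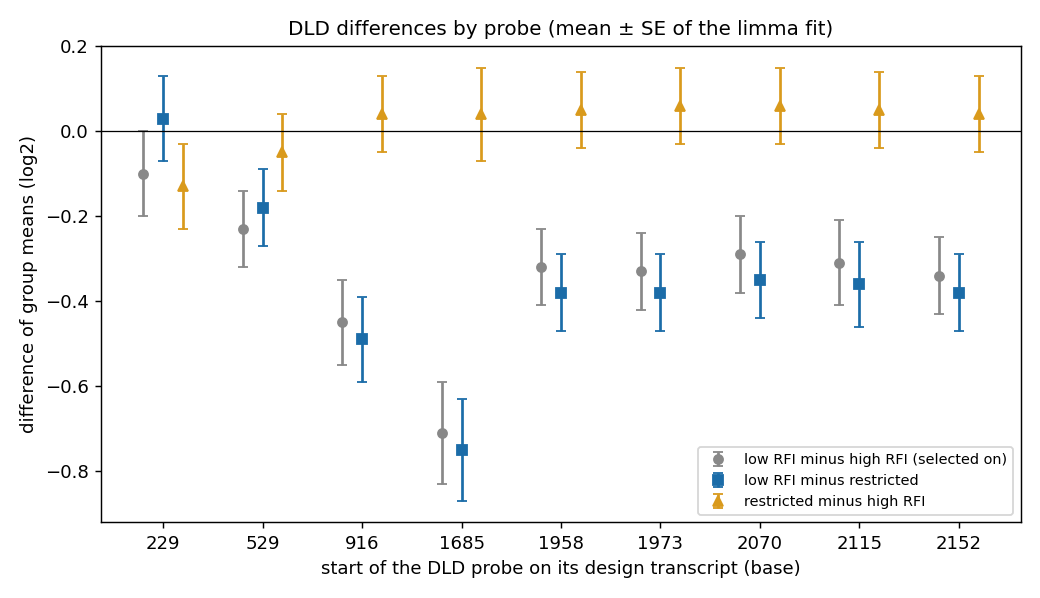
Difference of group means (log2, ± SE of the limma fit) at each of 9 DLD probes, by the probe's start, for 3 comparisons; those against the low-RFI group share its 7 pigs. From the probe at 916 onward the restricted-minus-high differences lie between 0.04 and 0.06, and the low-minus-restricted ones between -0.75 and -0.35.

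PDHA1, the catalytic alpha subunit of the first enzyme and the target of the kinases, did not pass the test at any of its 3 probes. Low-RFI pigs ranged at the probe at 1137 from 3.14 to 3.49 (median 3.37). The high-RFI pigs ranged from 3.07 to 4.32 (median 3.54) and the restricted pigs from 3.09 to 3.78 (median 3.53). Low-RFI pigs thus lay inside the range of both other groups. The difference was -0.16 (SE 0.16, adjusted p 0.812) for low-RFI minus restricted and -0.13 (SE 0.16, adjusted p 0.871) for restricted minus high-RFI.

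PDHA1 varied most among the high-RFI pigs. Its SD over pigs was 0.45 to 0.50 in that group across the 3 probes, 0.23 to 0.29 in restricted pigs and 0.13 to 0.15 in low-RFI pigs. The spreads were not tested. The 3 probes followed each other over the pigs with correlations of 0.95 to 0.96.

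DLAT, the lipoyl-bearing core of the complex, passed the test at neither of its 2 probes. Low-RFI pigs ranged at the probe at 1953 from 2.77 to 3.26 (median 3.11), the high-RFI pigs from 2.83 to 3.61 (median 3.32) and the restricted pigs from 2.81 to 3.41 (median 3.27). The differences were -0.12 (SE 0.11, adjusted p 0.771) for low-RFI minus restricted and -0.07 (SE 0.11, adjusted p 0.912) for restricted minus high-RFI. The second DLAT probe, at 1064, gave -0.07 and -0.11.

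PC, which takes pyruvate toward oxaloacetate, was highest by mean in restricted pigs at its main probe without passing the test. At the probe at 3477 the restricted pigs ranged from 1.60 to 2.18 (median 1.90) and the high-RFI pigs from 1.42 to 2.13 (median 1.67), a difference of 0.21 (SE 0.13, adjusted p 0.622). The low-RFI pigs ranged from 1.05 to 1.98 (median 1.80), a difference of -0.24 (SE 0.13, adjusted p 0.539) from the restricted pigs. The other PC probe, at 285, was well above background on 18 of 23 arrays and gave -0.05 and -0.10. Its correlation with the first over the pigs was 0.02.

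**Figure D3:**
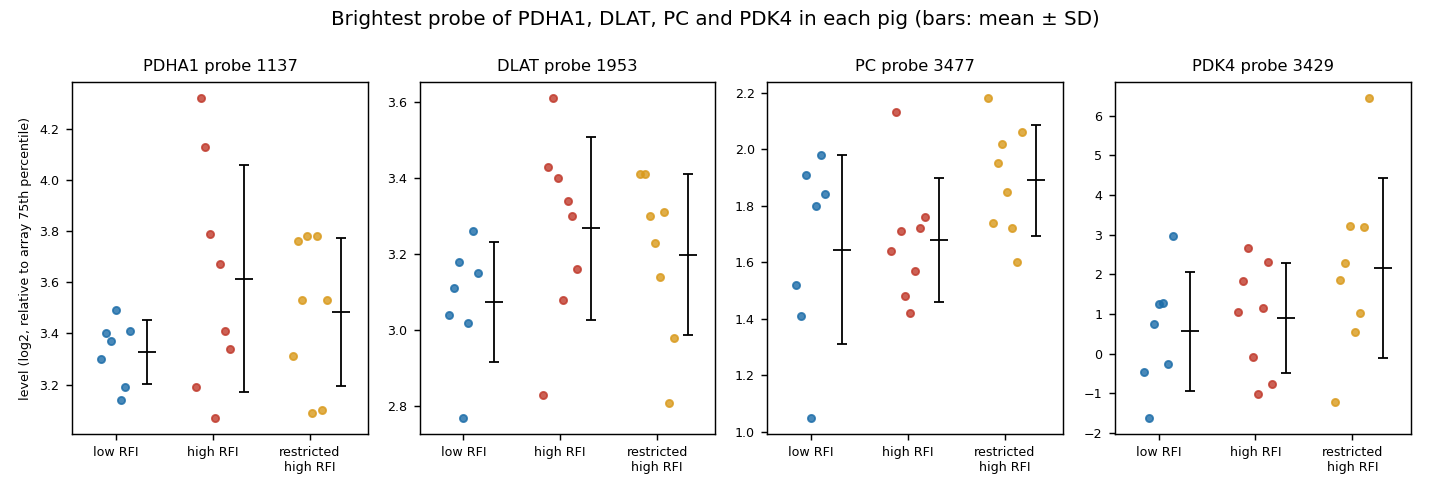
Level in each pig (log2, relative to the array's 75th percentile) of PDHA1, DLAT, PC and PDK4 at the probe with the highest mean signal of each gene, by group, with mean ± SD (n = 7, 8 and 8). The groups overlap in all 4 panels, and PDK4 spans -1.62 to 6.44.

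PDK4 differed far more between pigs of a group than between groups. At the probe at 3429 the low-RFI pigs ranged from -1.62 to 2.97 (median 0.75). The high-RFI pigs ranged from -1.01 to 2.67 (median 1.10). The restricted pigs ranged from -1.23 to 6.44 (median 2.07). The SD over pigs was 1.49, 1.39 and 2.27. No probe found by the rule for another member had an SD above 0.50 in any group.

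By mean PDK4 stood highest in restricted pigs, at all 9 probes, but no probe passed. Restricted minus high-RFI was 1.28 at the probe at 3429 (SE 0.83, adjusted p 0.66), and 0.42 to 1.35 over the 9 probes with a smallest adjusted p of 0.646. Low-RFI minus restricted was -1.61 (SE 0.86, adjusted p 0.534), and -1.64 to -0.98 over the 9 probes with a smallest adjusted p of 0.529. Low-RFI minus high-RFI was -0.33 at this probe, 0.66 within the first scan day and -1.53 within the second.

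The highest PDK4 value belonged to restricted pig 8, with 6.44 at the probe at 3429, and the next highest pig of the group had 3.23. Without this pig the difference of restricted from high-RFI pigs at that probe fell to 0.67 (adjusted p 0.814), and that of low-RFI from restricted pigs was -1.0 (adjusted p 0.794). The same pig was highest at all 9 PDK4 probes. Probe pairs of PDK4 had correlations over the pigs of 0.52 to 1.0 with a median of 0.99, and the lowest, 0.52 to 0.81, were those with the probe at 1846. That probe has 1 missing value, in a restricted pig, and its fit used the other 22 arrays.

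**Figure D4:**
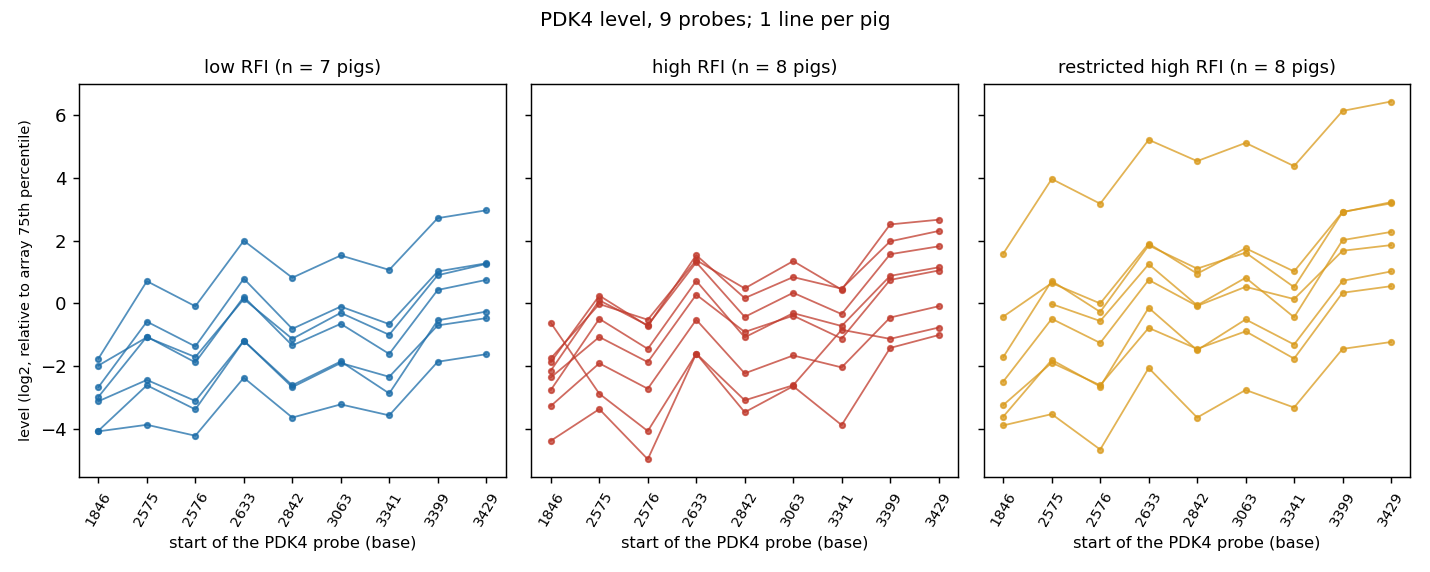
Level of PDK4 (log2, relative to the array's 75th percentile) at 9 probes, 1 line per pig, in 3 groups. Lines cross, most of all for high-RFI pig 8, which has -0.62 at the probe at 1846 and -2.88 at 2575; the lines cover about the same range in low-RFI and high-RFI pigs, and 1 restricted pig lies above all others, reaching 6.44.

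**Figure D5:**
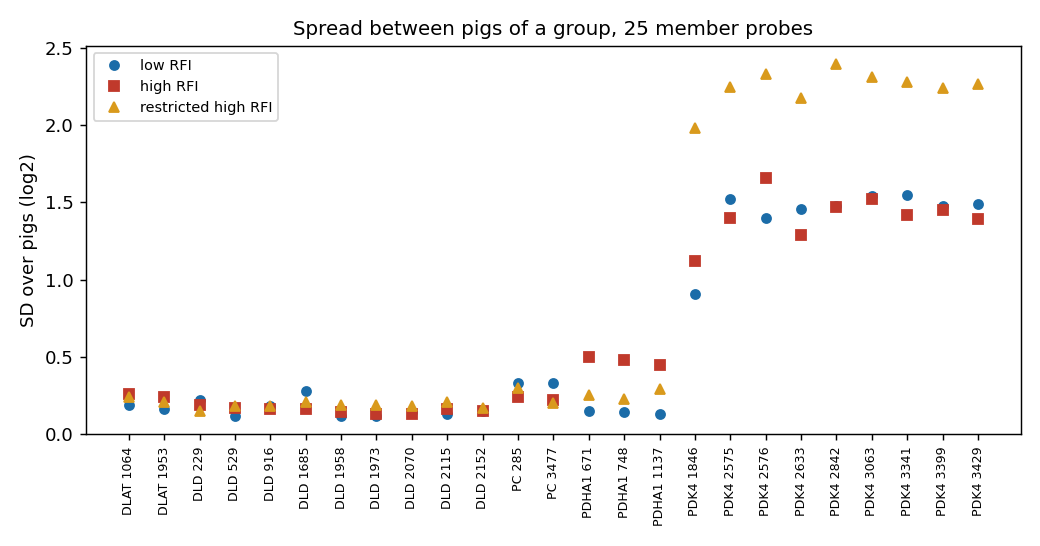
SD over pigs of a group (log2) for the 25 member probes, by gene and probe start, in 3 groups (n = 7, 8 and 8). The PDK4 probes lie between 0.91 and 2.40, those of PDHA1 lie highest in high-RFI pigs, and the DLD probes lie between 0.12 and 0.28.

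A few probes outside the rule carried a description of one of the listed proteins, and their values were looked up after the others were known. A probe described as the beta subunit PDHB, at 1393, ranged from 5.08 to 5.34 in low-RFI, 5.0 to 5.38 in high-RFI and 5.09 to 5.49 in restricted pigs. Low-RFI minus restricted was -0.09 (SE 0.08, adjusted p 0.762). Most DLD probes gave a larger difference with a like SE. DLD, unlike PDHB, was chosen on these low-RFI pigs, so nothing is read from that contrast. A probe described as PDK2, at 708, gave 0.19 (SE 0.26, adjusted p 0.868). A further probe described as PDK4, at 911, gave -1.73 (SE 0.83, adjusted p 0.488), and one described as PC, at 2372, gave -0.24 (SE 0.11, adjusted p 0.481). A probe described as DLD, at 702, was well above background on no array. One described as PDHA, at 617, was well above background on 13 of 23 arrays. Neither passed the filter on dim probes.

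Other genes of the pathway were taken from lists, each gene at its probe with the highest mean signal, and no gene of them passed in any comparison. Of 10 listed subunits of the other complexes that use DLD, 4 were measured. Low-RFI minus restricted was below 0 for 3 of these 4, with a median of -0.11 beside 0.02 for all probes: DLST, the core of the 2-oxoglutarate complex, gave -0.16 (SE 0.12, adjusted p 0.7), BCKDHA -0.15 and BCKDHB 0.19. The kinases PDK1 and PDK3, the 2 measured of 7 listed regulators, gave -0.03 and 0.11. None of the 7 listed genes of lipoate synthesis and attachment was measured.

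Around the complex, 5 of 15 listed genes of pyruvate supply and exchange were measured. ME1, the cytosolic malic enzyme, gave -0.65 (SE 0.21, adjusted p 0.262) for low-RFI minus restricted and 0.09 for restricted minus high-RFI. LDHA and LDHB, the lactate dehydrogenase subunits, gave 0.13 and -0.12 for restricted minus high-RFI, neither called. Of the first enzymes after acetyl-CoA, 7 of 8 listed were measured, and 6 lay below 0 in low-RFI minus restricted with a median of -0.08. IDH3A and IDH3B, subunits of the NAD-dependent isocitrate dehydrogenase, gave -0.24 (SE 0.18, adjusted p 0.696) and -0.20 (SE 0.10, adjusted p 0.525).

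Among factors known to act on PDK4, 6 of 8 listed were measured. PPARGC1A, a co-activator of mitochondrial genes, gave 0.66 (SE 0.37, adjusted p 0.587) for restricted minus high-RFI and -1.32 (SE 0.38, adjusted p 0.2) for low-RFI minus restricted. FOXO1 gave 0.28 and -0.43, and FOXO3 gave -0.36 and 0.42, none of them called. The median of the 6 was 0.17 for restricted minus high-RFI and -0.04 for low-RFI minus restricted. Of 11 fatty acid and fasting genes, all measured, 7 lay above 0 in restricted minus high-RFI with a median of 0.07. The uncoupling protein gene UCP3 gave 0.78 (SE 0.31, adjusted p 0.398), and CPT1B, which brings fatty acids into mitochondria, gave 0.27 (SE 0.19, adjusted p 0.705).

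Over the 23 pigs, after group means were subtracted, DLD at 1685 and 2152 and PDK4 at 3429 were set against 3818 other genes. This is a description, with pigs on shared slides. The probe at 1685 was taken for its smallest p in low-RFI minus high-RFI, the comparison DLD was chosen by. The probes at 2152 and 3429 were taken for the highest mean signal of their gene. The genes most like DLD at the probe at 2152 were ND5, ATP8 and ND3, all encoded by mitochondrial DNA, with correlations of 0.73, 0.69 and 0.69, then CEND1 and ESR1 with 0.68 each. Those most like DLD at the probe at 1685 were IDH2, PSMB4, CYB5B, HSDL2 and PSMB10, with 0.64 to 0.60. Those most like PDK4 at the probe at 3429 were CLTC, PAPOLA, CPT1A, ABHD4 and GPX3, with 0.71 to 0.67. The lists of neighbours for the DLD probes at 1685 and 2152 held no gene in common.

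Marker levels are given beside these results. Of 6 measured genes of mitochondrial mass (VDAC1, VDAC2, VDAC3, TOMM20, TFAM and SLC25A3), 5 were below 0 in low-RFI minus restricted with a median of -0.22, none called (smallest adjusted p 0.376) and 5 with an unadjusted p under 0.05, which 10.2% of all probes had. Their summed level was 8.31 to 8.66 in low-RFI, 8.26 to 8.79 in high-RFI and 8.47 to 8.87 in restricted pigs. The part of mitochondrial mass in the DLD difference was not tested. In whole tissue, fewer cells or mitochondria and less RNA per cell cannot be told apart.

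For other cell types, the summed level of 9 measured adipocyte markers was 4.61 to 5.87 in low-RFI, 4.55 to 7.13 in high-RFI and 4.58 to 6.34 in restricted pigs. That of 7 leukocyte markers was 1.58 to 2.70, 1.94 to 2.96 and 1.68 to 3.67, and that of 3 nerve markers was 2.35 to 3.45, 2.87 to 4.09 and 3.39 to 4.44. Of the nerve markers UCHL1 passed, lower in low-RFI than in restricted pigs (difference -1.07, SE 0.21, adjusted p 0.039). Fast-fibre markers summed to 12.32 to 12.53, 12.10 to 12.48 and 12.09 to 12.62, and slow-fibre markers to 11.09 to 11.47, 11.01 to 11.57 and 11.07 to 11.76. Their part in the results was not tested.

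The share of spots well above background was 41.6% to 79.0% over the arrays, with group medians of 69.3%, 67.95% and 67.25%. It was 41.6% to 58.8% on slide 3, which held arrays of all 3 groups. No member spot was saturated. The number of pigs limits the precision.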

How the data were processed

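RNA of 23 pigs was hybridised to 1-colour arrays. Per the file headers, the authors' scans were read with Agilent Feature Extraction 10.7.3.1, which gave the deposited spot intensity, background-subtracted processed signal and flags; R 2.10.0 is named in the submitters' processing notes. The deposited value table holds log2 values of these arrays with each array's median at 0, and served as an alternative only.

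Log2 of the processed signal was used for 43803 spots that are not controls; from each array its own 75th percentile over them was taken off, spots marked as outliers were left missing, and repeated spots of one probe were averaged. A probe was kept if the scanner software flagged it as well above background in 6 or more pigs of any group. That left 27799 probes with 484 missing values. The 3 groups were fitted together with limma 3.58.1 (R 4.3.3), with Benjamini-Hochberg adjustment over all kept probes and a threshold of 0.05. Symbols came from the files and RefSeq names, for 11017 probes. The fit was tested on simulated data before use. In low-RFI minus restricted it called 84 of 100 probes changed by 1 on the log2 scale. Of 100 probes changed by a fixed smaller amount it called 32, so small differences were mostly missed. The simulated arrays varied independently of each other and carried no slide effect, unlike arrays that share a slide.

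All listed genes were named, a gene standing at its probe with the highest mean, with up to 3 genes of each pathway list by size of difference. Members and lists were chosen with earlier results of these data known. Alternatives covered scaling, background, filters, slide, scan day, replicate number, fits of 2 groups, array weights, trend and robust variance, slide 3 and each pig.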

Additional observations from a re-analysis of the deposited data

How the results depend on the processing

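Of 25 member probes, 2 passed in low-RFI minus restricted. The count was 1 with median centring, no filter, slide as a fixed block, the replicate number as a block or 2 groups only. It was 0 with normexp background correction or without slide 3. It was 3 with slide as a random block or with only probes well above background on all arrays. Array weights, or trend and robust variance, gave 5. Without any 1 pig the count was 1 to 2. For low-RFI minus high-RFI, on which DLD was chosen, the count is a record only, and 1 became 0 with median centring or normexp, 2 with quantile normalization, robust normexp on negative controls, slide as a random block, array weights or trend and robust variance, and 1 to 2 without any 1 pig. In restricted minus high-RFI the count was 0 in all 15 alternatives and without any 1 pig. Over all probes, calls in low-RFI minus restricted ran from 0 (normexp) to 99 (array weights), against 45.

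Labels give no litter, so whether same-numbered pigs were pairs is not known, and the main fit did not pair them. Their deviations correlated between -0.30 and 0.33. The correlation was above 0.1 for 2 of 7 numbers in low-RFI with high-RFI pigs and 1 of 7 in low-RFI with restricted pigs. It was above 0.1 for 4 of 8 in restricted with high-RFI pigs. These values cannot decide whether the pigs were paired, since paired pigs need not correlate. With the replicate number as a block in limma, 1 member probe passed in low-RFI minus restricted, DLD at 1685 (adjusted p 0.0391). DLD at 916 did not (adjusted p 0.147).

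The normexp fit compressed 5 of 23 arrays: the 95th less the 75th percentile was 1.10 to 4.45, against 4.44 to 4.69 before, and the median of all probes shifted to 0.21 in restricted minus high-RFI and -0.14 in low-RFI minus restricted. Under it restricted minus high-RFI turned to -0.25 (DLD at 916), -0.61 (1685), -0.81 (1958), -0.73 (1973), -0.81 (2070), -0.80 (2115), -0.82 (2152) and -0.25 (PC). Low-RFI minus restricted turned to 0.07 (DLD at 529), 0.27 (1958), 0.22 (1973), 0.29 (2070), 0.26 (2115), 0.27 (2152), 0.43 (DLAT), 0.15 (PC) and 0.38 (PDHA1); at 916 and 1685 it stayed below 0, at -0.22 and -0.23. Of the other 1458 values of single probes under alternatives, 1433 kept direction and side of the threshold or moved by less than 1 SD. That share says little, since most are refits without 1 pig and most belong to probes not called in the main fit. For low-RFI minus high-RFI only the size of the shift was judged. DLD at 916 in low-RFI minus restricted passed in 8 of 15 alternatives.

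The 7 or 8 pigs a group and the signal over background, lowest on slide 3, limit what can be called; for PDK4 the SE was 0.67 to 0.90, against 0.09 to 0.12 for DLD.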
